A study of Mus musculus with 4 samples.

Results

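The SOX genes encode transcription factors that share a DNA-binding HMG box related to that of the sex-determining factor SRY. The data are RNA counts for 10 of them (Sox4, Sox5, Sox6, Sox8, Sox9, Sox12, Sox13, Sox14, Sox18 and Sox30) in whole testis of C57BL/6 mice at postnatal day 56. The 10 genes were chosen by symbol out of the 25265 genes in the table, with their counts in both genotypes and the result of the comparison between genotypes already known. Sox14 in particular stood out by that comparison, so the contrasts of these 10 genes, with their calls in the fit over all genes and the counting interval of Sox14, are a description and not a test of a hypothesis. Of the 4 libraries, 2 were labelled control and 2 Ythdf2-vKO, and the series title describes the mutation of Ythdf2 as germ cell-specific. YTHDF2 recognises N6-methyladenosine (m6A) in RNA and promotes the decay of such transcripts in the cytoplasm. The driver of the deletion, the deleted segment, the genotype of the controls beyond that word, and the number of animals behind the libraries are not given in the sources used here. P-values therefore measure only the spread between these libraries, which may be technical.

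SOX proteins bind the minor groove of DNA through the HMG box and bend it, and they are sorted into groups by the similarity of that box. In the mammalian gonad SRY turns on Sox9, which directs the supporting cells to become Sertoli cells, and Sox8, a member of the same group E, acts beside it in these cells. In germ cells, Sox30 (group H) is needed for the transcription programme of spermatids, and short isoforms of Sox5 (group D) are made in spermatids. Sox14 belongs to group B2, whose proteins act mainly as repressors, and is best known from interneurons of the central nervous system.

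The stretch that codes for the start of the conserved core of the HMG box is shown for each gene, because this box is what the 10 genes share as a family. The sequences run 5′ to 3′ on the coding strand, were read from the longest GENCODE M21 transcript of each gene (mouse build GRCm38), and are 45 bases long. Capitals mark bases unlike the base of Sox14 at the same place.
Sox14: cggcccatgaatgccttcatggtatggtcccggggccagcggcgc
Sox8: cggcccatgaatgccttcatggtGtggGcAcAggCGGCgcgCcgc
Sox9: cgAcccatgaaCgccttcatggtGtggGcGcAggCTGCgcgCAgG
Sox5: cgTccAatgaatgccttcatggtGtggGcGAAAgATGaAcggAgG
Sox6: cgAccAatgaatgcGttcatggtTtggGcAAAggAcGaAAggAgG
Sox13: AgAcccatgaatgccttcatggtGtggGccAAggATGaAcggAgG
Sox30: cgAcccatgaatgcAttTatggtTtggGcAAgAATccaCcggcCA
Sox4: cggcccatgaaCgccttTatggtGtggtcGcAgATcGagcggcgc
Sox12: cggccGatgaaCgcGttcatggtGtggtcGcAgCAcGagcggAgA
Sox18: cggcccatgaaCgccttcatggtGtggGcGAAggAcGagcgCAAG
Over the 180 bases that start with this stretch, Sox14 was 67.2% identical to Sox4 and to Sox18, 66.7% to Sox9, 64.4% to Sox8 and 55.6% to Sox30. Within the groups the genes were closer, at 85.6% between Sox8 and Sox9, 85% between Sox4 and Sox12, 85% between Sox5 and Sox13 and 81.7% between Sox5 and Sox6. Sox30 was the most distant, with 45% to 55.6% identity to the other 9. In a search of the longest transcripts of all annotated genes on the coding strand, none of the 10 had a match in another gene of at least 90% identity over at least 100 bases.

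Gene totals ran from 24862518 to 29561182 counts per library. CPM is the depth-scaled count with TMM scaling (a trimmed mean of ratios between libraries), and values are mean ± SD over 2 libraries unless each library is given. The targeted gene Ythdf2 stood at 51.04 and 53.5 CPM (control) and at 66.3 and 66.98 CPM (libraries labelled Ythdf2-vKO), so its counts were not lower there. The deleted segment is not given, so the deletion cannot be judged from counts of the whole gene in whole testis. Groups are therefore named by their labels, and directions are those of the libraries labelled Ythdf2-vKO (vKO below) relative to control. Genes that mark Sertoli cells, spermatocytes and spermatids were present in all 4 libraries, as the tissue label says. Library content also moved with GC content. With transcript GC content over 17817 genes, the log2 fold change had a Spearman correlation of 0.293. The same measure for each library's departure from the average of the 4 gave 0.0239 and -0.40 for control and 0.254 and 0.189 for vKO. Genes of 1 library share depth and base composition, so these correlations describe the libraries only.

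All 10 SOX genes passed the filter on low counts. Sox14 did so through the control libraries alone, the group where it was high. By edgeR's quasi-likelihood test over 21132 genes with an adjusted p under 0.05, Sox14 was called lower, against 0.114% of all genes tested. None of the 10 was called higher, against 0.279% of all genes tested. At an unadjusted p under 0.05 there were 3 with a higher value (Sox8, Sox9 and Sox13), beside 7.65% of all genes tested, and a DESeq2 Wald test called 0 higher. The lowest vKO library lay above the highest control library in 6 of the 10 (Sox4, Sox5, Sox6, Sox8, Sox9 and Sox13), beside a background of 22.7%, and the reverse held for Sox14, beside a background of 22.6%. Since the same comparison chose the genes, nothing is read from these counts. The median log2 fold change of the 10 was 0.23, beside 0.00 over all genes tested.

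**Figure D1:**
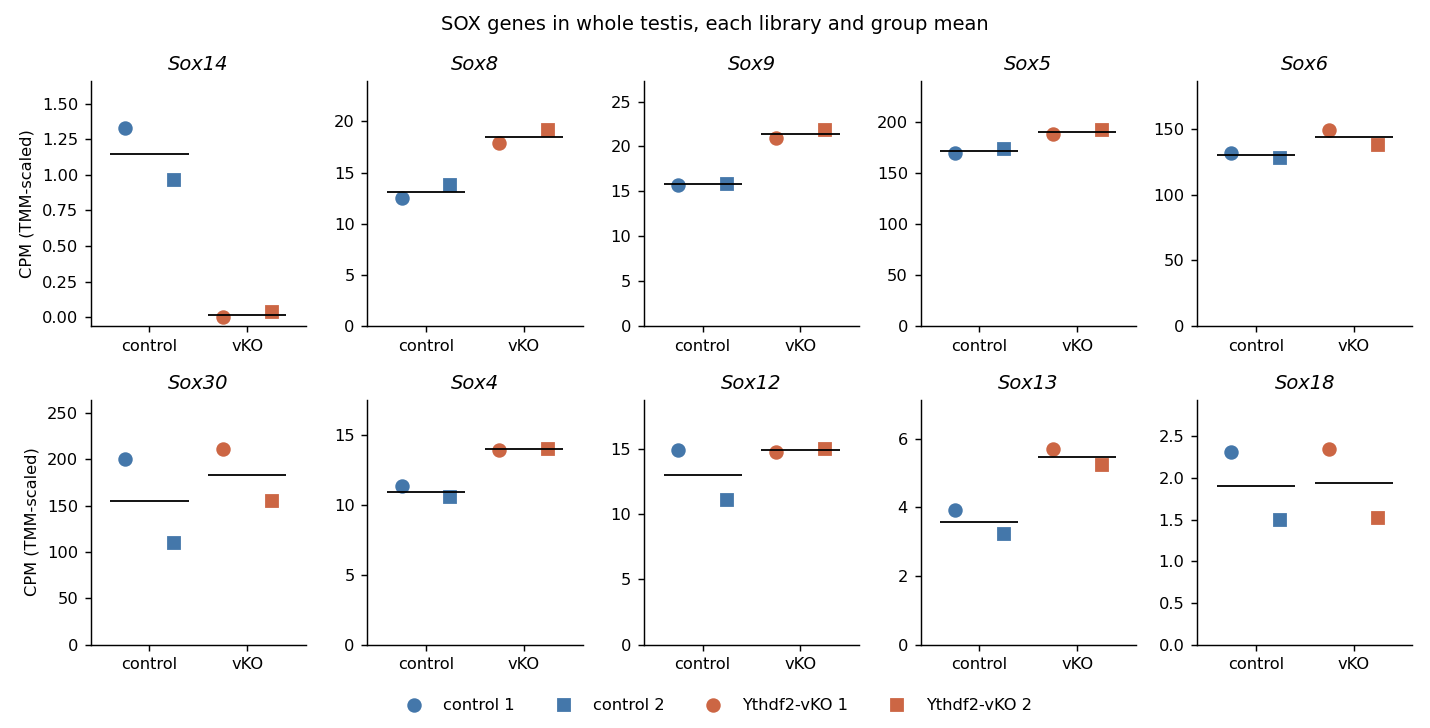
TMM-scaled CPM (vertical axes, from 0 except for Sox14, whose axis starts just below 0) of the 10 SOX genes in each library. Circles are replicate 1 and squares replicate 2 of a group, blue is control, orange is vKO, and the black line is the mean of a group. Sox14 lies at 0 and 0.0371 CPM in vKO, Sox8 and Sox9 are higher in both vKO libraries, and Sox30 and Sox18 differ more between replicates than between groups.

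Sox14 (ENSMUSG00000053747) is a gene of 1 exon (GRCm38 chromosome 9, 99874106 to 99876170, minus strand). It had 31 and 29 counts in control against 0 and 1 in vKO. This is 1.33 and 0.967 CPM in control against 0 and 0.0371 CPM in vKO. Both control libraries held reads of the gene and both vKO libraries lay under a floor of 3 counts, which stands at 0.112 and 0.111 CPM there. Summed and scaled to depth, the 60 counts of control were 60.4 times the 1 count of vKO, with an exact 95% interval of 10.4 to 2427 for the ratio. This interval covers counting error only and not the spread between animals. In the authors' deposited table the adjusted p of Sox14 is not filled in. The call was lost without vKO replicate 1, when the 1 count of vKO replicate 2 stood for the group.

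The RefSeq promoter entry of Sox14 (GRCm38.p6, chr9:99876121-99876420, minus strand, 250 bases before to 50 after the start) is shown because this is the gene that differed most. It is given 5′ to 3′ on the gene's strand, and capitals mark the GC box, which is GGGCGG on either strand.
Sox14: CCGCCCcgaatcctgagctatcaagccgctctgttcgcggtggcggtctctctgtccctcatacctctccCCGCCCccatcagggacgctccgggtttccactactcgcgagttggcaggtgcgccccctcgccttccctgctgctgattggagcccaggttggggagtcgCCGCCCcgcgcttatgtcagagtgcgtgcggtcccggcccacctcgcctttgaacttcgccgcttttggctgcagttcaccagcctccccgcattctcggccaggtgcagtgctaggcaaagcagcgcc
It holds 3 GC boxes and a GC content of 66%, and a GC box on either strand is found in 35.7% of all 32851 promoter entries. The SOX core ACAAT, searched on both strands and unable to overlap the GC box, is not in this window, while 31% of all entries hold it. Promoter entries were found for 8 of the 10 genes, not for Sox9 and Sox18. Of these 8, 5 had a GC box (Sox6, Sox8, Sox12, Sox14 and Sox30) and 3 the SOX core (Sox5, Sox6 and Sox30) in at least 1 entry. Such matches describe the letters and are not binding sites.

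The annotation places the starts of 15 other genes within 500 kb of the start of Sox14. Of these, 9 were tested and 0 were called by edgeR, beside 0.279% of all genes tested called higher and 0.114% called lower. At such shares nothing is read from 0 calls. The nearest, the long noncoding RNA gene Gm47757 with its start 17.9 kb away, had 376 and 415 counts in control against 328 and 280 in vKO, a log2 fold change of -0.40 (SE 0.18). The noncoding gene 4930519F24Rik, 146 kb away on the other side, had 45 and 87 counts in control against 42 and 40 in vKO, a log2 fold change of -0.67 (SE 0.34). Both were lower in vKO, by less than the ratio at Sox14. The protein-coding genes Dzip1l (log2 fold change 0.68, SE 0.36), Dbr1 (0.23, SE 0.24), Armc8 (-0.09, SE 0.14), Nme9 (-0.83, SE 0.45) and Mras (0.03, SE 0.17) went both ways. The noncoding genes 4930540E01Rik (-0.38, SE 0.44) and Gm28167 (-0.92, SE 0.48) were both below 0.

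Genes whose profile over the 4 libraries lay nearest to that of Sox14 were ranked by Euclidean distance of centred log2 CPM (prior count 2). The nearest was Gm31532, annotated as a processed pseudogene, at a distance of 0.493 with 250 and 262 counts in control against 17 and 16 in vKO. Gm9817 followed at 1.03 (12 and 19 against 0 and 1 counts), then Gm31511 at 1.37 (13 and 34 against 1 and 2), Gm28783 at 1.49 (11 and 12 against 0 and 2) and 1700054O05Rik at 1.59 (48 and 39 against 8 and 8). Of these 5, Gm31532 was called lower and the other 4 were not called. With 4 libraries this likeness reflects little more than the size of the group difference.

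Sox9 and Sox8 are the group E genes of the Sertoli cell. Sox9 (ENSMUSG00000000567, plus strand of chromosome 11, 112782224 to 112787760) had 15.7 and 15.8 CPM in control against 20.99 and 21.8 CPM in vKO. Sox8 (ENSMUSG00000024176, minus strand of chromosome 17, 25565892 to 25570686) had 12.5 and 13.8 CPM in control against 17.9 and 19.2 CPM in vKO. Both vKO libraries were above both control libraries in each gene, and the replicates lay close together. The log2 fold changes were 0.44 (SE 0.15) for Sox9 and 0.49 (SE 0.16) for Sox8, and neither was called. Over the alternatives in processing, Sox9 ran from 0.44 to 0.51 and Sox8 from 0.38 to 0.55, and leaving out each library in turn gave 0.41 to 0.47 and 0.42 to 0.57. The antisense gene 2810468N07Rik shares up to 329 exon bases with Sox8 and had 72 and 104 counts in control against 107 and 122 in vKO. How the counting used strand is not given in the sources used here, so reads in the shared part cannot be told apart.

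Sertoli cell markers lay on the same side of 0 as these genes. All 14 listed markers, of which Sox9 is 1, had a log2 fold change above 0, with a median of 0.45, while 50.3% of all genes tested were above 0. After the GC offset described below the median of the 14 was 0.35. Of the 14, edgeR called 1 higher (Wt1), beside 0.279% of all genes tested, and this call was lost without robust estimation. DESeq2 called 3, and over all genes it called 137 higher and 80 lower. At an unadjusted p under 0.05 there were 9, beside 14.1% of all genes tested. The summed level of the 14 was 1194 and 1262 CPM in control against 1713 and 1517 CPM in vKO. The part of this shift in the values of Sox8 and Sox9 was not tested. In whole testis, more cells of a type and more RNA per cell cannot be told apart. The 5 genes nearest to Sox9 in profile were Grasp (distance 0.0185), Trpm5 (0.0201), Cuta (0.0256), Elf4 (0.0363) and Nudt10 (0.0381), none of them called.

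Sox5, Sox6 and Sox30 had the highest counts of the 10. Sox5 (ENSMUSG00000041540, minus strand of chromosome 6, 143828425 to 144781977) had 169.6 and 173.3 CPM in control against 188.3 and 192.1 CPM in vKO. Sox6 (ENSMUSG00000051910, minus strand of chromosome 7, 115470872 to 116038796) had 132.2 and 128.3 CPM in control against 149.4 and 138.1 CPM in vKO. These group D genes had small differences between the groups, with log2 fold changes of 0.15 (SE 0.12) and 0.14 (SE 0.12), and neither was called. The antisense gene Sox5os1 shares up to 1330 exon bases with Sox5 and had 88 and 60 counts in control against 54 and 51 in vKO, against 3964 to 5196 counts of Sox5.

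Sox30 (ENSMUSG00000040489, plus strand of chromosome 11, 45980310 to 46017994) differed more within the groups than between them. It had 199.8 and 109.5 CPM in control against 211.7 and 155.5 CPM in vKO, so replicate 1 was the higher library in each group and the groups overlapped. The ratio of replicate 1 to replicate 2 was 1.82 in control and 1.36 in vKO. Of 10352 genes tested with a mean of at least 10 CPM, 99.4% differed less between the control libraries and 97.4% less between the vKO libraries. The log2 fold change of 0.25 (SE 0.31) therefore rested on single libraries. Without control replicate 1 it was 0.74 and the gene was called higher, and without control replicate 2 it was -0.12 and not called.

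**Figure D2:**
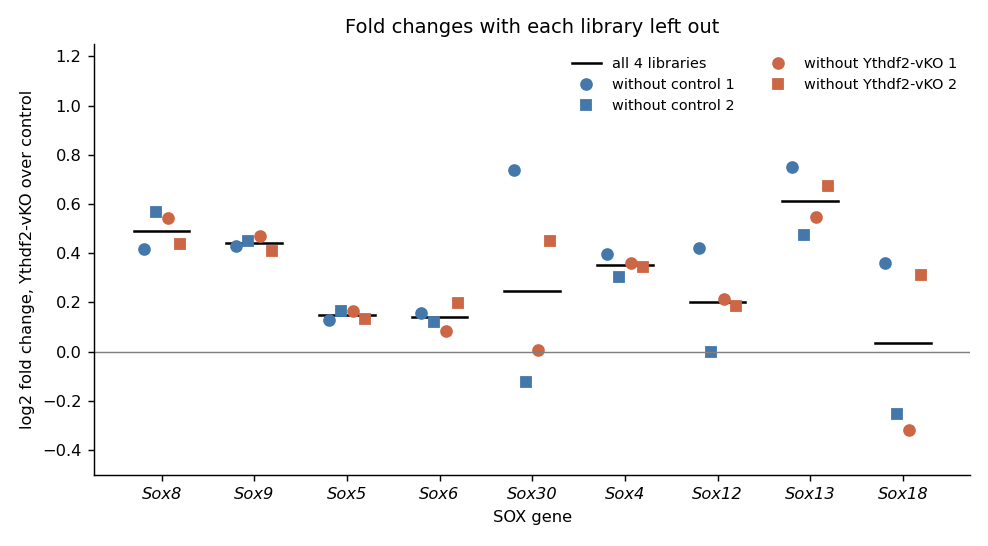
Fitted log2 fold change of vKO over control (vertical axis) for 9 SOX genes, with all 4 libraries (black line) and with 1 library left out (symbols; circles for replicate 1, squares for replicate 2, blue for control, orange for vKO). Sox8, Sox9, Sox5, Sox6, Sox4 and Sox13 stay above 0, while Sox30 spans -0.12 to 0.74 and Sox18 spans -0.32 to 0.36.

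Markers of spermatocytes and spermatids had medians near or below 0. Of the listed markers of spermatocytes 1 of 12 had a log2 fold change above 0 (median -0.20), of round spermatids 5 of 9 (median 0.00) and of elongating spermatids 1 of 12 (median -0.23), and 0 were called by edgeR or DESeq2. At an unadjusted p under 0.05 there were 2, 0 and 5 of them in turn, beside 14.1% of all genes tested. Above 0 were 50.3% of all genes tested, and edgeR called 0.279% of them higher and 0.114% lower. All 12 spermatogonia markers were above 0 (median 0.30, 0 called by either tool, 4 at an unadjusted p under 0.05). The median of round spermatids was -0.09 after the GC offset described below.

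Sox4, Sox12, Sox13 and Sox18 complete the set. Sox4 (ENSMUSG00000076431, minus strand of chromosome 13, 28948919 to 28953713), a group C gene active in many developing tissues, had 11.3 and 10.6 CPM in control against 13.9 and 14.05 CPM in vKO. Its log2 fold change was 0.35 (SE 0.17) with no overlap of the groups. The gene Gm26735 on the other strand shares up to 2616 exon bases with Sox4 and had 2 to 4 counts per library. Sox12 (ENSMUSG00000051817, minus strand of chromosome 2, 152393611 to 152398063), of the same group, had 14.9 and 11.1 CPM in control against 14.8 and 15.0 CPM in vKO, so that control replicate 2 alone stood apart. Its log2 fold change was 0.20 (SE 0.18), and 0.00 without control replicate 2.

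Sox13 (ENSMUSG00000070643, minus strand of chromosome 1, 133382303 to 133424377), a group D gene like Sox5 and Sox6, had 3.94 and 3.24 CPM in control against 5.72 and 5.23 CPM in vKO. Its log2 fold change of 0.61 (SE 0.24) was the highest of the 10 and was not called. Sox18 (ENSMUSG00000046470, minus strand of chromosome 2, 181669836 to 181671640), a group F gene of vascular and lymphatic endothelium, had 2.31 and 1.501 CPM in control against 2.35 and 1.52 CPM in vKO. The group means were 1.91 ± 0.572 and 1.94 ± 0.590 CPM (SD, n = 2), and replicate 1 was the higher library in each group. Its log2 fold change was 0.03 (SE 0.37), at 41 to 63 counts per library. Of 12 tested endothelial markers, 9 were above 0, beside 50.3% of all genes tested. Their median was 0.30, which was 0.12 after the GC offset described below. Among them edgeR called Robo4 higher (log2 fold change 2.91, SE 0.41), beside 0.279% of all genes tested. Robo4 passed the filter on low counts only with the vKO libraries.

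Base composition bears on several of these values. Transcript GC content was 60.9% for Sox18, 60.8% for Sox13, 59.9% for Sox12, 55.8% for Sox14, 54.2% for Sox8 and for Sox30, 51.1% for Sox4, 49.3% for Sox9, 46.1% for Sox6 and 44.8% for Sox5, beside a median of 48.9% for all genes tested. With an offset that removes the trend of each library with GC content, the log2 fold change was -0.01 for Sox12, -0.19 for Sox18, 0.38 for Sox13 and 0.14 for Sox30. Sox12 and Sox18 thus changed sign, and Sox13 came down from 0.61. Sox9 stayed at 0.44, Sox5 and Sox6 were at 0.20 and 0.18, Sox4 at 0.32 and Sox8 at 0.38.

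**Figure D3:**
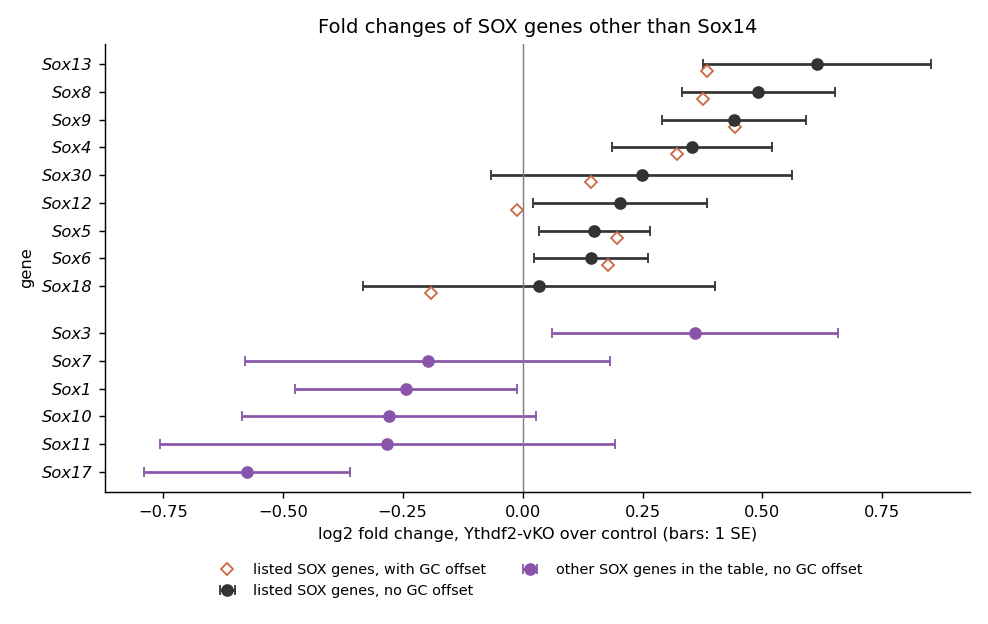
Log2 fold change of vKO over control (horizontal axis, bars 1 SE) for 9 of the 10 SOX genes in black and for 6 other SOX genes in purple, with the values after the GC offset as open diamonds. The fold change of Sox14 is left out because its fitted value depends on the prior count. Sox13, Sox8 and Sox9 lie furthest to the right, followed by Sox3 and Sox4, the diamonds of Sox12 and Sox18 lie left of 0, and Sox17 lies furthest to the left.

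Levels of different genes were compared as CPM per kb of annotated exon. In control Sox30 was highest at 51.6 ± 21.3, followed by Sox5 at 11.9 ± 0.183, Sox6 at 8.78 ± 0.188, Sox8 at 4.22 ± 0.299, Sox9 at 3.81 ± 0.0245, Sox12 at 2.92 ± 0.612, Sox4 at 2.28 ± 0.113, Sox18 at 1.18 ± 0.353, Sox13 at 0.832 ± 0.115 and Sox14 at 0.555 ± 0.123 (SD, n = 2). Sox30, Sox5 and Sox6 thus stood above Sox8 and Sox9, and Sox14 stood last. These are levels in whole testis, where more cells of a type and more RNA per cell cannot be told apart. Within the 2 control libraries no neighbours in this order overlapped. Over all 4 libraries the ranges of Sox8 and Sox9, of Sox12 and Sox4, and of Sox18 and Sox13 overlapped. In vKO Sox13, at 1.27 ± 0.0802, stood above Sox18, at 1.20 ± 0.364, by less than the SD of Sox18. Taking the longest transcript as the length left the order as it was, with Sox5 at 23.7 ± 0.364.

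**Figure D4:**
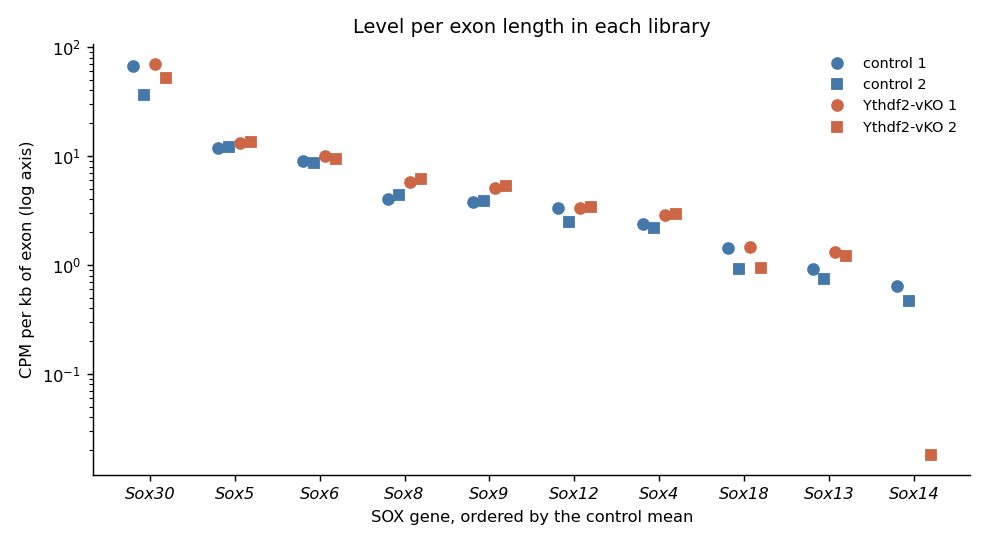
Level of each SOX gene as CPM per kb of exon (vertical log axis) in each library, ordered by the control mean. Circles are replicate 1, squares replicate 2, blue control and orange vKO. Sox30 is highest in every library, and Sox14 is lowest, with vKO replicate 1 at 0 and so not drawn on the log axis.

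Sox14 was set beside the Sertoli cell genes Sox8 and Sox9 and beside Sox5, Sox6 and Sox30. With all 4 libraries and no GC offset, it was the 1 gene of the 10 below 0. With the GC offset Sox12 (-0.01) and Sox18 (-0.19) were below 0 as well. Control was 60.4 times vKO for Sox14, while vKO was 1.36 times control for Sox9, 1.41 for Sox8, 1.11 for Sox5, 1.10 for Sox6 and 1.19 for Sox30. Since Sox14 was picked for its difference, the contrast between these changes was not tested. Of the other SOX genes, 6 of the 10 listed have a row in the table and 0 were called by edgeR or DESeq2. By edgeR 0.279% of all genes tested were called higher and 0.114% lower. At an unadjusted p under 0.05 there was 1, beside 14.1% of all genes tested. That gene was Sox17, a group F gene like Sox18. It had 19.8 and 12.3 CPM in control against 11.02 and 10.5 CPM in vKO (log2 fold change -0.57, SE 0.21), so that control replicate 1 stood apart. The median of the 6 was -0.26, and Sox3 (0.36, SE 0.30) was the 1 gene above 0, beside 50.3% of all genes tested. Sox1 (-0.24, SE 0.23), a relative of Sox14 in group B, had 149 and 170 counts in control against 156 and 117 in vKO.

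Lists of genes that work with the SOX factors were described in the same fit. Of 17 genes of the SOX9 network of the Sertoli cell 16 were tested. Of these, 12 had a log2 fold change above 0 (median 0.22), beside 50.3% of all genes tested. At an unadjusted p under 0.05 there were 6, beside 14.1% of all genes tested. Among these, Wt1, Nr5a1, Amh and Map3k4 were higher in vKO. Lhx9 (log2 fold change -0.89, SE 0.36) and Six4 (-0.93, SE 0.41) were lower. By edgeR 1 was called higher, beside 0.279%. DESeq2 called 2, and over all genes it called 137 higher and 80 lower. The gene called by edgeR was Wt1, a transcription factor needed for gonad formation and Sertoli cell identity, at 32.0 ± 1.1 CPM in control and 52.5 ± 2.45 CPM in vKO (log2 fold change 0.71, SE 0.13, edgeR adjusted p = 0.0418). Its call was lost without robust estimation (edgeR adjusted p = 0.0501), without vKO replicate 1 (0.338) and without vKO replicate 2 (0.0824). Nr5a1, which activates Sox9 together with SRY, had 25.8 ± 0.337 and 39.5 ± 2.03 CPM (0.62, SE 0.14, edgeR adjusted p = 0.0769). Amh, a direct target of SOX9, had 42 and 30 counts in control against 117 and 67 in vKO (1.31, SE 0.38, edgeR adjusted p = 0.163). After the GC offset the median of this list was 0.06.

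Of 7 genes of the ovarian pathway that opposes SOX9, 5 were tested. All 5 had a log2 fold change above 0, beside 50.3% of all genes tested. At an unadjusted p under 0.05 there were 3, beside 14.1% of all genes tested. By edgeR 1 was called higher, beside 0.279%, and by DESeq2 0. The gene called by edgeR was Wnt4, a signalling protein that promotes ovarian fate. It had 1 and 6 counts in control against 60 and 52 in vKO. Its log2 fold change was 3.96 (SE 0.58, edgeR adjusted p = 0.0171), and 3.34 to 5.46 with a library left out. Wnt4 passed the filter on low counts through the vKO libraries alone, so its call is a description. A filter of at least 10 counts in every sample dropped it. DESeq2 gave it no adjusted p, and called it with its filtering set at 0.05, an alternative chosen after seeing the data. Fst, which encodes follistatin, had 5 and 30 counts in control against 50 and 52 in vKO, and Runx1 had 5 and 14 against 27 and 23. Neither was called by edgeR, and both passed the filter on low counts only with the vKO libraries. Wt1 and Wnt4 were already known to differ in these data, and their calls add no independent support. Of 13 transcription regulators of spermatocytes and spermatids, 3 were above 0 (median -0.10), beside 50.3% of all genes tested. By edgeR or DESeq2 0 were called, where edgeR called 0.279% of all genes tested higher and 0.114% lower. At an unadjusted p under 0.05 there was 1 regulator, beside 14.1% of all genes tested. The 3 with the highest mean CPM over the 4 libraries, a choice that leaves length out, were Tcfl5 at 441 ± 45.3 and 439 ± 10.6 CPM, Rfx2 at 395 ± 108 and 448 ± 8.2 CPM, and Gtf2a1l at 334 ± 4.3 and 296 ± 2.29 CPM, in control and vKO.

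Of 3 sperm flagellar genes linked to SOX5, 1 was above 0 and 0 were called by either tool, with 2 at an unadjusted p under 0.05. They were Spag6l at 422 ± 18.7 CPM in control and 348 ± 8.1 CPM in vKO, Spag16 at 138 ± 4.26 and 115 ± 1.65 CPM, and Catsper1 at 127 ± 4.95 and 133 ± 8.22 CPM. Of 7 POU factors, which pair with SOX proteins of groups B and C on DNA, 5 were tested, 3 were above 0 and 0 were called by either tool, with 1 at an unadjusted p under 0.05. The 3 chosen by mean CPM in the same way were Pou6f1 at 65.8 ± 6.33 and 64.6 ± 5.8 CPM, Pou5f2 at 49.9 ± 6.83 and 38.7 ± 8.48 CPM, and Pou2f1 at 29.0 ± 3.99 and 31.3 ± 3.59 CPM. Neuronal markers, listed because Sox14 marks interneurons, summed to 69.6 and 62.5 CPM in control against 82.6 and 81.8 CPM in vKO. Without Tubb3, the gene with the highest CPM among them, the sums were 40.2 and 30.5 CPM in control against 33.1 and 38.9 CPM in vKO, so the groups overlapped. Of 9 tested, 5 were above 0 (median 0.08) and 0 were called by edgeR, with 3 at an unadjusted p under 0.05 and 1 called by DESeq2. Markers of Leydig cells (7 of 8 above 0, median 0.38), peritubular myoid cells (2 of 6, -0.05), macrophages (6 of 7, 0.07) and erythrocytes (4 of 4, 0.76) had 0 calls by either tool, and 4, 0, 1 and 3 at an unadjusted p under 0.05. For every list in this paragraph, the shares over all genes tested were 50.3% above 0 and 14.1% at an unadjusted p under 0.05. By edgeR 0.279% were called higher and 0.114% lower.

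YTHDF2 reads m6A, which is often placed in the sequence GGACT, so this motif was counted on the coding strand of the longest transcript of each SOX gene. Sox12 held 12 copies, or 2.69 per kb, Sox13 held 7 (1.90 per kb) and Sox4 held 9 (1.88 per kb), beside a median of 1.02 per kb over all genes tested. Sox14 held 2 copies (0.969 per kb), close to that median, and Sox8, Sox30, Sox5 and Sox9 held 0.667, 0.667, 0.690 and 0.726 per kb. Sox18 and Sox6 held 1.23 and 1.04 per kb. A copy of the motif does not show that it is methylated.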

How the data were processed

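RNA from whole testis was depleted of ribosomal RNA and made into directional libraries, per the labels' protocols. HISAT2 2.1.0 and HTSeq 0.6.1p1 are named in the submitters' processing notes, and their settings, strand use and genome build are not given in the sources used here. The authors deposited raw read counts per gene, a mean normalized count (a signal), a log2 fold change, the standard error of that change, a test statistic (a score), and a p-value with its adjusted value, per the file headers. Columns were read by position, because the first header name contains a tab.

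The counts entered edgeR 4.0.16, run in R 4.3.3 beside limma 3.58.1, under TMM scaling, filterByExpr, robust quasi-likelihood fits of genotype alone and two-sided tests, with Benjamini-Hochberg adjustment over 21132 genes and a threshold of 0.05. DESeq2 1.42.0 was an alternative, and others were other scalings, filters, a GC offset (spline of 5 degrees of freedom), the replicate number as a block, and leaving out each library. The fit was run on simulated counts with the same dispersion for every gene and no GC trend, which does not vouch for single calls here. Reads carry no molecular identifiers, so intervals and floors cover counting error only. Of the identifiers, 25241 were found in GENCODE M21 (GRCm38), and the authors' build may differ. Promoters are from RefSeq.

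Named genes are all 10 SOX genes, called genes of the 6 pathway lists and otherwise up to 3 of highest level, neighbours of Sox14 within 500 kb, the 5 profiles nearest to Sox14 and to Sox9, and Ythdf2. Nr5a1, Amh, Map3k4, Lhx9, Six4, Fst, Runx1, Sox17, Sox3, Sox1, Robo4 and Tubb3 were named after their values were seen. The members and lists were chosen with earlier results of these data known.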

Additional observations from a re-analysis of the deposited data

How the results depend on the processing

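The count of SOX genes called higher was 0 and that called lower was 1 under every alternative that gave a value, except when a library was left out, where each ran from 0 to 1. Sox30 was called higher without control replicate 1, and Sox14 was not called without Ythdf2-vKO replicate 1. These fits leave 1 library in a group, which is assumed to vary like the others. A filter of at least 10 counts in every sample dropped Sox14, and the DESeq2 Wald test gave it no adjusted p, so neither has a value for it. With the filtering of that test set at 0.05, an alternative chosen after seeing the data, Sox14 was called. Its fitted log2 fold change ran from -5.95 to -3.70 over 9 alternatives, and the prior count of 2 gave the latter. Values of the other sign were -0.012 (GC offset) and -0.00896 (GC offset and replicate block) for Sox12. For Sox18 they were -0.19, -0.20, -0.25 (without control replicate 2) and -0.32 (without Ythdf2-vKO replicate 1), with the first pair under the same settings as for Sox12. For Sox30 it was -0.12 without control replicate 2. Leaving out libraries, the range was -0.32 to 0.36 for Sox18 and -0.12 to 0.74 for Sox30. The cause was not tested.

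Of 48 pathway genes tested, 2 were called higher and 0 lower. The count of higher genes was 1 with at least 10 counts in every sample, 1 without robust estimation and 1 to 7 with a library left out. The lower count was 0 to 2 with a library left out. Over all genes there were 59 higher and 24 lower calls. These were 181 and 37 with library totals alone, 137 and 80 with the DESeq2 Wald test, 141 and 75 with its filtering at 0.05, and 66 lower with the GC offset. Without robust estimation 15 were lower. Leaving out a library gave 30 to 1048 higher and 5 to 523 lower. Higher calls were most numerous without control replicate 1 and lower calls without control replicate 2, and both were fewest without Ythdf2-vKO replicate 1.

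Both groups carry replicate numbers 1 and 2, but same-numbered libraries deviated together only weakly (correlation 0.0932 across 17827 genes, 1 comparison), so they were not taken as pairs. With the replicate block there were 627 higher and 390 lower calls over all genes and 6 higher among the pathway genes (Wt1, Wnt4, Nr5a1, Amh, Fst and Map3k4). With the GC offset and replicate block there were 279 and 339 over all genes, and 1 pathway gene, Pou5f2, was lower. The block changed no call of a SOX gene.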
